A study of Homo sapiens with 6 samples.

Results

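The BCL2 family decides whether the outer membrane of mitochondria stays closed or is opened in apoptosis, and 10 of its genes were followed here in RNA of H929, a human multiple myeloma cell line. The genes were listed by name as members of the family, with earlier results of these data known. They comprise the anti-apoptotic guardians MCL1, BCL2L1 (which encodes BCL-XL) and BCL2, the pore-forming effectors BAX and BAK1, and the BH3-only genes BCL2L11 (BIM), PMAIP1 (NOXA), BBC3 (PUMA), BID and BIK. All 10 were among the 24945 genes with a count in the 6 libraries, and all 10 passed the filter on low counts, which kept 14398 genes. In each reaction, 5 μg of total RNA was kept at 37 °C for 1 h, either with no enzyme or with 2 μg of the recombinant human enzyme IRE1 (residues 467 to 977). Heating to 95 °C for 5 min ended the reaction in both arms. There were 3 IRE1-treated samples and 3 controls, which the series describes as biological replicates of the cell line, and each gave 1 poly(A)-selected paired-end library. Each sample occupied its own sequencing lane, so lane and sample cannot be told apart. The enzyme met purified RNA and not cells, and all samples came from a single line.

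In this family the guardians bind BAX, BAK1 and the BH3-only proteins and hold them inactive. BH3-only proteins are produced or activated under stress, occupy the guardians or engage the effectors directly, and the effectors then form pores that release cytochrome c. Plasma cells and many myelomas depend on MCL1. IRE1 is a sensor of endoplasmic reticulum stress with an RNase domain that cuts XBP1 mRNA for splicing and degrades other mRNAs, of which BLOC1S1 is a well-known example. The comparison asked whether exposure of the RNA to this RNase changed the gene-level read counts of the family. The controls gave the level of the transcripts in RNA of the line that met no enzyme. They went through the same incubation and heating, and any loss of reads in those steps was not measured. Levels in the controls may therefore differ from those in the cells. As the paper describes, poly(A) selection after a cut loses the upstream fragment, while the downstream fragment is still counted. A gene count that did not change therefore does not show that the transcript was left uncut. Counts are scaled to the reads of each library, so genes that rise or fall here changed in relative level. A rise does not mean that more transcript was made, as the RNA had been purified from the cells.

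Depth on genes was 19615715 to 25678499 counts in the 6 libraries. BLOC1S1 fell from 584 to 651 normalized counts in the controls to 212 to 276 in the IRE1-treated samples (log2 fold change -1.37, adjusted p = 1.25e-06, edgeR's quasi-likelihood test). XBP1 had a gene-level log2 fold change of -0.093 (adjusted p = 0.143, the same test) and passed the threshold under 5 of 16 alternative settings. The paper reports that XBP1 reads fell upstream of the cut sites and were similar downstream. A gene-level count pools both regions, so it does not measure how much XBP1 was cut. The plasma cell markers SDC1, TNFRSF17, CD38, IRF4, PRDM1, MZB1 and JCHAIN were all present, at 489.5 normalized counts or more in each library. The B cell marker MS4A1, the T cell marker CD3D and the myeloid marker CD14 had 0 to 3 raw counts. Raw counts were 13 to 36 for PAX5 and 2 to 9 for LYZ. CD3E was an exception among the markers of other cells, with 899 to 1179 normalized counts, and its part in the results was not tested.

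Before the counts, the transcripts themselves were searched for CTGCAG, the DNA spelling of the core of the consensus that IRE1 cuts. The word is its own reverse complement, and only the transcript strand was read. The canonical transcripts of the 10 genes held 19 matches, of which 4 were in 5′ UTRs, 7 in coding sequence and 8 in 3′ UTRs. Matches were present in 7 genes, and none was found in MCL1, BCL2L1 or BIK. With 0.67 matches per kb against 0.806 per kb over all tested protein-coding genes, the family was not rich in the word. It occurred in 85.3% of those 12182 genes, and in 67.8% of those between 500 and 2000 bases, 87.9% of those between 2000 and 5000 bases and 96.1% of those between 5000 and 10000 bases. BCL2L11 had 7 matches (1.37 per kb) and BID had 3 (1.38 per kb). There were 2 each in BCL2, BAK1, PMAIP1 and BBC3, and 1 in BAX.

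The windows of the 3 genes that passed the test below are shown, each 30 bases long and read 5′ to 3′, with CTGCAG in capitals. They are reference sequence (GRCh37, GENCODE release 44), with T in place of U.
BCL2L11 match 1: cagccgcctggtCTGCAGtttgttggagct
BCL2L11 match 2: ggcaggctgaacCTGCAGatatgcgcccag
BCL2L11 match 3: attatgtaacccCTGCAGtggaaactgagc
BCL2L11 match 4: agcagagtccagCTGCAGcatccagctcac
BCL2L11 match 5: gtttcctcagccCTGCAGcccctgggagca
BCL2L11 match 6: tttggaaacttaCTGCAGgttttgtgcctt
BCL2L11 match 7: tgctgtaaataaCTGCAGatttttaaacaa
BCL2 match 1: aggacctcgccgCTGCAGaccccggctgcc
BCL2 match 2: catgaaacaaagCTGCAGgctgtttaagaa
BAX match 1: agtaacatggagCTGCAGaggatgattgcc

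In BCL2L11 the first match was in the 5′ UTR in exon 1 of 4 (chr2:111878516-111878521) and the second was coding, in exon 3 (chr2:111907642-111907647). The other 5 matches were in the long 3′ UTR in exon 4, from chr2:111922238-111922243 to chr2:111925963-111925968. BCL2 had a coding match in exon 2 of 3 (chr18:60985681-60985686) and a 3′ UTR match in exon 3 (chr18:60795761-60795766). The single BAX match was coding, in exon 3 of 6 (chr19:49459083-49459088). IRE1 is known to cut this word after the third base where that base sits in a hairpin loop. When each match was folded with 15 bases on either side, the third base was in a predicted hairpin loop at 6 of the 19 matches, paired at 10 and unpaired elsewhere at 3. The 6 included match 5 of BCL2L11 (a loop of 6 bases) and match 2 of BCL2 (a loop of 3 bases), while the BAX match was paired. The other 4 were 2 in BID (loops of 7 and 6 bases), 1 in BAK1 (8 bases) and 1 in PMAIP1 (4 bases). Those genes did not pass the test below, so a predicted loop did not mark the genes that passed. These are matches of letters and predicted folds, and no cut was measured at any of them, since counts per gene do not show where in a transcript reads were lost.

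In the controls, MCL1 was by far the most abundant of the 10 transcripts. Levels between genes are compared per length, in CPM (the count relative to the TMM-scaled library size) per kb of merged exons. MCL1 stood at 157 ± 3.38 (SD, n = 3), which was 2.96-fold above BAK1 at 53.2 ± 1.93. BAX followed at 31.1 ± 1.93 and BCL2L1 at 22.9 ± 0.705. A second tier comprised BID at 7.59 ± 0.203, BCL2L11 at 5.31 ± 0.102 and BIK at 4.97 ± 0.397. BCL2 itself was near the bottom, at 3.12 ± 0.194, and its range over the controls overlapped that of BBC3 at 3.02 ± 0.26. PMAIP1 was lowest, at 0.9 ± 0.244. No other neighbours in this order overlapped between the controls, although BCL2L11 and BIK were only 1.07-fold apart.

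The length chosen for a gene moved some of these positions. Per length of the longest transcript, BAX (59.2) and BAK1 (53.2) overlapped in the controls, and per length of the canonical transcript BAX (101) was above BAK1 (54.2). BCL2, BBC3 and BIK lay at 4.97 to 5.28 per length of the longest transcript, each overlapping its neighbour. MCL1 was the highest and PMAIP1 the lowest under all 3 lengths.

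**Figure D1:**
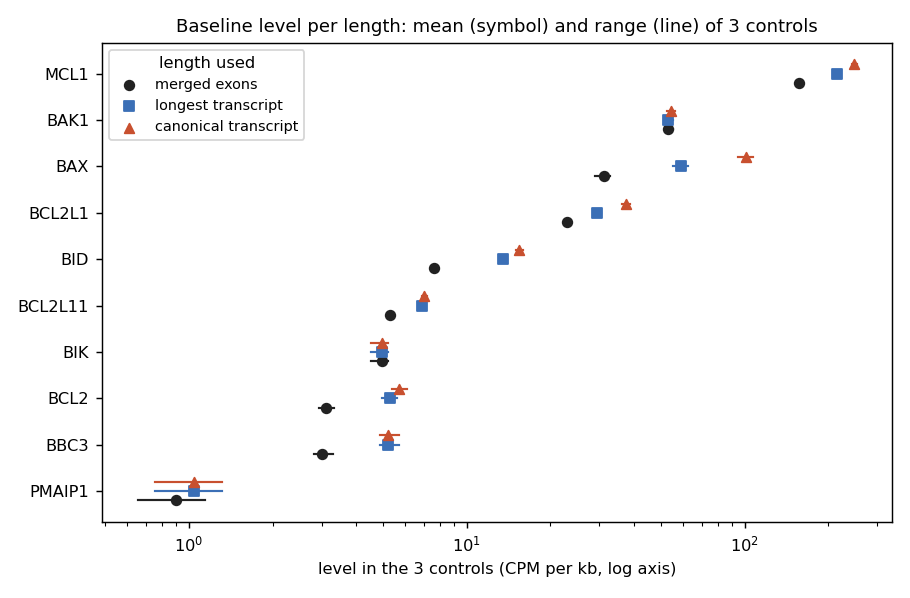
Level of the 10 genes in the 3 controls, in CPM per kb on a log axis, with symbols for the mean, lines for the range and 1 symbol type for each of the 3 transcript lengths used. MCL1 is highest and PMAIP1 lowest with each length, while BAX moves from 31.1 with merged exons to 101 with the canonical transcript.

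MCL1 made up 85.8% ± 0.486 (SD, n = 3) of the summed guardian level in the controls. BCL2L1 gave 12.5% ± 0.566 and BCL2 1.7% ± 0.08. On the pro-apoptotic side, the effectors dominated, with BAK1 at 50.1% ± 0.526 and BAX at 29.3% ± 1.07 of the sum. The 5 BH3-only genes shared the rest, from BID at 7.16% ± 0.126 down to PMAIP1 at 0.845% ± 0.201. These shares are per length of merged exons, and the order of the effectors turned with the other lengths. BAX gave 41.1% and BAK1 36.9% by longest transcript, and BAX 53.5% and BAK1 28.7% by canonical transcript. The guardian sum exceeded the pro-apoptotic sum in every control, by ratios of 1.77, 1.79 and 1.63 (mean log2 ratio 0.79). This excess was carried by MCL1, since without it the mean log2 ratio was -2.03. It also depended on the genes counted and on length, with a log2 ratio of 0.24 when the other measured guardians, effectors and BH3-only genes were included, 0.62 per canonical length and 1.97 with no division by length.

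After IRE1 treatment the ratios of guardians to pro-apoptotic genes were 1.42, 1.51 and 1.65. The mean log2 ratio was 0.61, a difference of -0.18 from the controls, and the groups overlapped (p = 0.2, two-sided exact permutation test of 3 against 3, for which 0.1 is the smallest possible p).

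Of the 10 genes, 2 were lower after IRE1 treatment (BCL2 and BCL2L11), 1 was higher (BAX) and 7 did not pass the test. Over all tested genes 12.4% were lower, 10.3% were higher and 22.7% changed in either direction at an adjusted p under 0.05, so that 3 of 10 was close to the background. The 2 groups of libraries did not overlap for 4 of the 10 genes (BCL2, BCL2L11, BAX and BID), against 39.1% of all tested genes. The median log2 fold change of the 10 was 0.061, and that of all tested genes was 0.0045. Of all changed genes, 45.5% were higher, a share that became 20.8% with scaling by library size only and 60.4% once the trend with transcript length and GC content was removed from each library. The count of changed genes, 3270 with all libraries, fell to 1681 when control replicate 1 was left out, to 1630 for control replicate 2 and to 1982 for IRE1-treated replicate 2.

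**Figure D2:**
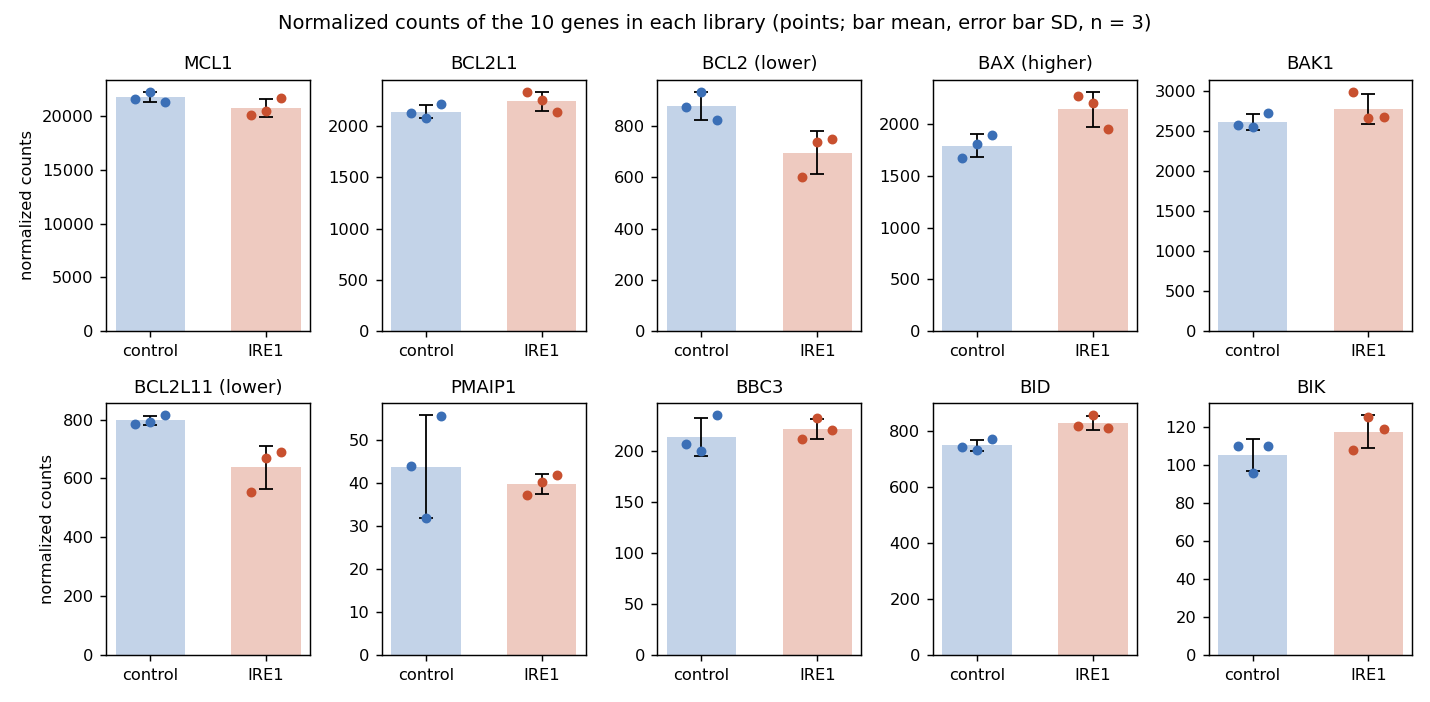
Normalized counts of the 10 genes in each library (points), with bars for the mean and error bars for the SD of 3 controls (blue) and 3 IRE1-treated samples (red), each panel with its own axis from 0. BCL2 and BCL2L11 lie lower in all 3 IRE1-treated samples than in any control, and BAX and BID lie higher.

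Among the guardians only BCL2 passed the test. BCL2 (ENSG00000171791, chr18:60790579-60987361, minus strand) is the founding member of the family and the target of venetoclax. It had 874, 933 and 824 normalized counts in the controls and 599.9, 738 and 748 in the IRE1-treated samples. The highest treated sample lay below the lowest control. The means were 877 ± 54.6 and 695 ± 82.6 (SD, n = 3 each), or 79.3% of the control level. BCL2 fell by 0.33 on the log2 scale (SE 0.0808, 95% interval -0.50 to -0.16, adjusted p = 0.00843, edgeR's quasi-likelihood test, adjusted over all genes by Benjamini-Hochberg). The call was lost without control replicate 2 (log2 fold change -0.29, adjusted p = 0.06, the same test).

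MCL1 (ENSG00000143384, chr1:150533371-150552214, minus strand), a short-lived guardian that holds BAK1 and BIM, did not pass the test. It had 21658, 22293 and 21379 normalized counts in the controls and 20139, 20513 and 21723 after treatment. The third treated sample lay inside the range of the controls and the others lay below it. The log2 fold change was -0.067 (95% interval -0.16 to 0.031, adjusted p = 0.328, edgeR's quasi-likelihood test), so a fall larger than 0.16 lay outside the interval. With scaling by library size only it passed, at -0.14 (adjusted p = 0.0419). ADAMTSL4-AS1 shares exon sequence with MCL1 on the same strand and ADAMTSL4 on the opposite strand.

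BCL2L1 (ENSG00000171552, chr20:30252255-30311792, minus strand), a guardian that restrains BAX and BAK1, had 2122, 2081 and 2210.2 normalized counts in the controls and 2325, 2253 and 2139.7 after treatment. The groups overlapped. Its log2 fold change was 0.066 (95% interval -0.042 to 0.17, adjusted p = 0.387, edgeR's quasi-likelihood test).

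Of the effectors, BAX was higher and BAK1 did not pass the test. BAX (ENSG00000087088, chr19:49458072-49465055, plus strand) is mostly cytosolic until it moves to mitochondria and forms pores. Its normalized counts were 1671, 1810.4 and 1891 in the controls and 2274, 2206 and 1951 in the IRE1-treated samples. All treated samples were above all controls, though the lowest of them by a small margin. The means were 1791 ± 111 and 2143 ± 169.9 (SD, n = 3 each), or 119.7% of the control level. The log2 fold change was 0.26 (SE 0.0635, 95% interval 0.12 to 0.39, adjusted p = 0.00872, edgeR's quasi-likelihood test). The call was lost with control replicate 1 left out (0.21, adjusted p = 0.0702) and also with IRE1-treated replicate 2 left out (0.24, adjusted p = 0.054), by the same test.

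BAK1 (ENSG00000030110, chr6:33540324-33548070, minus strand), the effector that resides in the outer membrane, had 2577, 2551 and 2727 normalized counts in the controls and 2997, 2666 and 2676 after treatment. Only the first treated sample exceeded the controls. The log2 fold change was 0.086 (95% interval -0.032 to 0.20, adjusted p = 0.293, edgeR's quasi-likelihood test). GGNBP1 overlaps BAK1 on the opposite strand and 2 pseudogenes are named after it, so its counts are less certain than those of BAX.

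BCL2L11 was the only BH3-only gene that passed. BCL2L11 (ENSG00000153094, chr2:111876955-111926021, plus strand) encodes BIM, which binds all guardians and can engage the effectors directly. Its 3 controls were close together, at 785, 793 and 814 normalized counts, and the IRE1-treated samples had 554, 668 and 689.6. Every treated sample was lower than every control, with the first treated sample furthest away, as it was for BCL2. The means were 797 ± 15.2 and 637 ± 72.7 (SD, n = 3 each), or 79.9% of the control level. BCL2L11 fell by 0.32 on the log2 scale (SE 0.0767, 95% interval -0.48 to -0.16, adjusted p = 0.00789, edgeR's quasi-likelihood test). It passed in all 6 fits that left out 1 library, with log2 fold changes of -0.37 to -0.23. IRE1-treated replicate 1, the lowest library for both BCL2L11 and BCL2, also had the lowest depth (19615715 counts) and TMM factor (0.947). Without it, both genes still passed the same test, at -0.23 for BCL2L11 (adjusted p = 0.0125) and -0.24 for BCL2 (adjusted p = 0.0108). MIR4435-2HG shares exon sequence with BCL2L11 on the opposite strand. The libraries were made with a stranded kit, but whether reads were counted by strand is not given in the sources used here.

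BID (ENSG00000015475, chr22:18216904-18257536, minus strand), which caspase-8 cleaves to link death receptors to mitochondria, had 740.0, 732 and 770.0 normalized counts in the controls and 815, 854 and 809 after treatment. The groups did not overlap, yet the gene did not pass the adjusted test. The log2 fold change was 0.14 (95% interval 0.016 to 0.27, adjusted p = 0.1, edgeR's quasi-likelihood test), and it passed under 0 of 16 alternative settings.

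BIK (ENSG00000100290, chr22:43506756-43525718, plus strand), a BH3-only protein found largely at the endoplasmic reticulum, had 109.9, 95.5 and 110.1 normalized counts in the controls and 108, 125 and 119 after treatment (log2 fold change 0.16, 95% interval -0.12 to 0.44). The p53 target BBC3 (ENSG00000105327, chr19:47724079-47736023, minus strand) had 207, 199.7 and 235 in the controls and 212, 232 and 220.5 after treatment (0.056, interval -0.16 to 0.27). The groups overlapped for both genes, and MIR3191 lies opposite to BBC3.

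PMAIP1 (ENSG00000141682, chr18:57567228-57571537, plus strand), a stress-induced protein that neutralizes mainly MCL1, was barely expressed. Its raw counts were 52, 33 and 54 in the controls and 31, 38 and 43 after treatment. At this depth the log2 fold change of -0.13 had a 95% interval of -0.61 to 0.35, so these counts leave the direction undetermined. The adjusted p-values of BIK, BBC3 and PMAIP1 were 0.418, 0.749 and 0.731 (edgeR's quasi-likelihood test).

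The changes of the 10 genes were ordered much as the lengths of their transcripts. The 2 genes that fell had the longest transcripts of the 10 by annotation, 7461 bases for BCL2 and 5171 for BCL2L11, while BAX had 1358. Spearman's rho between longest transcript and log2 fold change was -0.745 over the 10 genes and -0.524 over 14111 tested genes, given as descriptions across genes, which share the same 6 libraries. Among tested genes under 2000 bases the median log2 fold change was 0.17, with 24.6% higher and 0.928% lower. Among those of 5000 bases or more the median was -0.17, with 2.93% higher and 31.8% lower.

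When the trend with longest transcript and GC content was removed from each library, 1 of the 10 genes still passed. BCL2L11 kept a log2 fold change of -0.22 (adjusted p = 0.0456, edgeR's quasi-likelihood test), whereas BCL2 moved to -0.14 (adjusted p = 0.209) and BAX to 0.11 (adjusted p = 0.196). With the canonical transcript as the length, BCL2L11 was at -0.19 (adjusted p = 0.0927, the same test) and 0 of the 10 genes passed. BCL2 was then at -0.12 and BAX at 0.091. All 3 genes kept their direction in all 16 alternative settings.

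**Figure D3:**
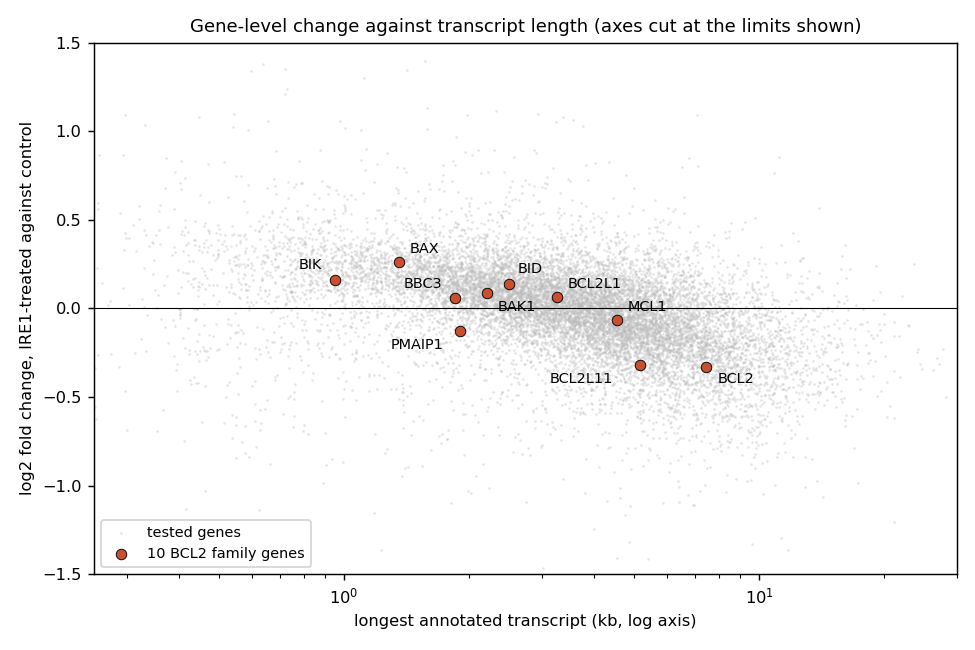
Log2 fold change of each tested gene (grey) against its longest annotated transcript in kb on a log axis, with the 10 genes marked in red. BCL2 (7461 bases) and BCL2L11 (5171 bases) lie low on the right and BAX (1358 bases) and BIK (951 bases) lie above 0 on the left.

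Ratios of 2 genes within a library do not depend on how libraries are scaled, and 7 were compared. The ratio of MCL1 to BCL2, per length, was 50.2, 48.4 and 52.6 in the controls and 68, 56.4 and 58.9 after treatment. That of MCL1 to BCL2L11 was 29.9, 30.5 and 28.4 in the controls and 39.4, 33.3 and 34.1 after treatment. The ratio of BAX to BAK1 went from 0.555, 0.607 and 0.593 to 0.649, 0.707 and 0.624. In these 3 ratios the groups did not overlap, and each had the smallest p that 3 against 3 can give (p = 0.1, two-sided exact permutation test; 0.233 after Benjamini-Hochberg adjustment over the 7). No ratio passed the threshold, and at this size none could.

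The ratio of BCL2 to BCL2L11 had a mean of 0.587 in the controls and 0.583 after treatment (p = 0.9, exact permutation test). The ratio of MCL1 to BCL2L1 had means of 6.87 and 6.26 (p = 0.2), that of MCL1 to PMAIP1 179 and 184 (p = 0.8), and that of BCL2L1 to BAK1 0.43 and 0.425 (p = 0.7), by the same exact permutation test. In these 4 ratios the groups overlapped.

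**Figure D4:**
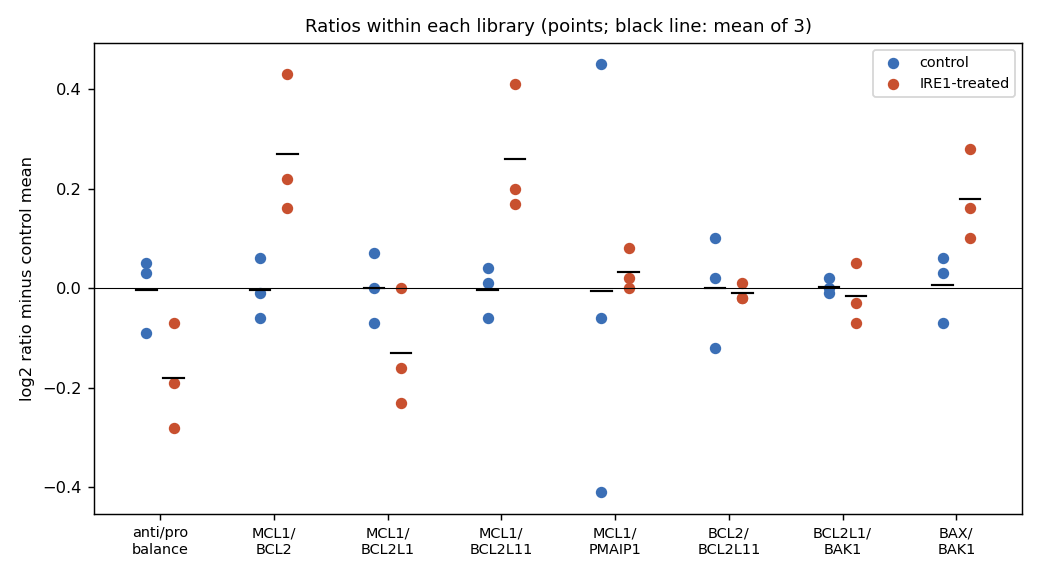
Log2 of each ratio within a library minus its control mean, for the balance of guardians to pro-apoptotic genes and 7 ratios of 2 genes, with a point for each of 3 controls (blue) and 3 IRE1-treated samples (red) and a line for the mean. The groups separate for MCL1/BCL2, MCL1/BCL2L11 and BAX/BAK1, and the points of MCL1/PMAIP1 spread most among the controls.

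The rest of the family showed no call. Of 13 further genes, 9 had enough counts to be tested, and 0 passed edgeR's quasi-likelihood test, against 22.7% of all tested genes. With only 9 genes, this count does not set the family apart from the background. The groups of libraries did not overlap for 1 of the 9 (BCL2L13), against 39.1% of all tested genes. None of the 9 had an unadjusted p under 0.05, and DESeq2 and limma also called 0, though DESeq2 gave no adjusted p for BCL2A1. BMF, a BH3-only protein that is tied to the cytoskeleton, was the most abundant BH3-only transcript in the controls at 37.5 ± 0.538 CPM per kb, above all 5 listed BH3-only genes. It had 4616, 4554 and 4485 normalized counts in the controls and 4527, 4629.8 and 4703 after treatment, with a log2 fold change of 0.021 (95% interval -0.074 to 0.12). HRK, a BH3-only gene best known from neurons, had the lowest value of the 9, at -0.31 (interval -0.70 to 0.08), on 56 to 111 raw counts.

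The 2 further guardians tested, BCL2L2 (BCL-w, log2 fold change -0.0072) and BCL2A1 (BFL-1, 0.10), were scarce at 2.92 and 2.47 CPM per kb in the controls. The BH3-only gene BAD had a log2 fold change of 0.08. Among the atypical relatives, values were 0.079 for BCL2L12, -0.066 for BCL2L13, 0.06 and -0.026 for BNIP3 and BNIP3L, a pair of mitophagy receptors. BCL2L2 shares exons with the read-through gene BCL2L2-PABPN1, and 44 pseudogenes are named after BNIP3. Too few counts were found to test BCL2L10 (0 to 2 raw counts), the effector-like BOK (0 to 3) and BCL2L15 (1 to 6). BCL2L14 had 0 counts in all 6 libraries, which allows up to 3 counts in a library, or 0.117 to 0.153 CPM, counting error only.

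**Figure D5:**
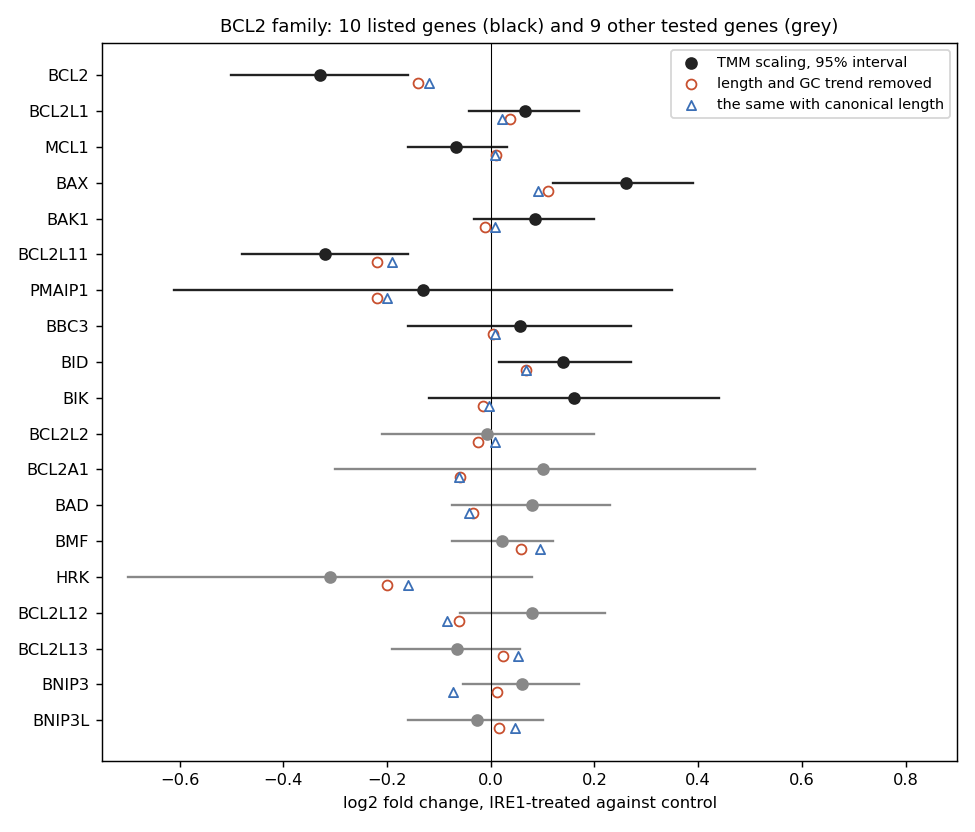
Log2 fold change of the 10 listed genes (black) and the 9 other tested family genes (grey), with 95% intervals, and the values after removal of the trend with length and GC content, by longest transcript (red circles) or canonical transcript (blue triangles). Only BCL2, BCL2L11, BAX and BID have intervals that exclude 0, and the trend-removed values of BCL2 and BAX lie closer to 0.

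Genes that act before, beside or after the family were read from 5 further lists of 52 genes, 50 of them tested. Of these, 7 were lower and 8 higher, against 12.4% lower and 10.3% higher over all tested genes, and their median log2 fold change was -0.015. These counts moved with the scaling, to 14 lower and 3 higher by library size only, and to 1 lower and 6 higher with the length and GC trend removed. They were 2 lower and 4 higher without control replicate 1, 2 and 3 without control replicate 2, and 3 and 5 without IRE1-treated replicate 2, and 4 were higher without control replicate 3. The 2 genes that were not tested were TRIM17 (0 raw counts) and TP73 (0 to 3).

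Downstream of the pores, in the list of apoptosome and caspase genes, 1 of 15 was lower and 4 were higher, against 12.4% and 10.3% of all tested genes, with a median log2 fold change of 0.11. CYCS, the cytochrome c that BAX and BAK1 release, was at 0.21 (adjusted p = 0.0358, edgeR's quasi-likelihood test), with 1636 to 1735 normalized counts in the controls and 1766 to 2196 after treatment. As 42 pseudogenes are named after CYCS, its counts are uncertain. HTRA2 and AIFM1, which also leave mitochondria, and the inhibitor of apoptosis BIRC5 (survivin) stood at the same 0.21 (adjusted p = 0.0144, 0.0105 and 0.0147). With scaling by library size only, CYCS, HTRA2, AIFM1 and BIRC5 were each at 0.13 and uncalled (adjusted p = 0.0531 to 0.153, the same test). With the length and GC trend removed by longest transcript, HTRA2 was at 0.087 (adjusted p = 0.299) and BIRC5 at 0.14 (adjusted p = 0.0683), both uncalled, while CYCS was at 0.35 and AIFM1 at 0.33. By canonical transcript, AIFM1 was at 0.15 (adjusted p = 0.0477). CYCS passed in 2 of the 6 fits that left out 1 library, HTRA2 in 3, AIFM1 in 4 and BIRC5 in 2, and CYCS was at 0.12 without IRE1-treated replicate 1. BIRC6, a giant ubiquitin ligase that inhibits caspases, was furthest from 0, at -0.60 (log2 fold change, adjusted p = 0.00016). It went from 1101 to 1316 normalized counts to 733 to 873 and passed in all 16 alternative settings, though with the trend removed it was at -0.33 by longest and -0.31 by canonical transcript.

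Of 9 genes on the death receptor route to BID, 0 were lower and 1 was higher, against 12.4% and 10.3% of all tested genes. The higher gene was the adaptor FADD at 0.19 (adjusted p = 0.0364, edgeR's quasi-likelihood test). It passed in 5 of 16 alternative settings.

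Among 9 tested genes that control turnover of the MCL1 protein, 3 were lower and 1 was higher, against 12.4% and 10.3% of all tested genes. The MCL1 ubiquitin ligase HUWE1 (MULE) was at -0.19 (adjusted p = 0.0183), the deubiquitinase USP9X, which stabilizes MCL1, at -0.18 (adjusted p = 0.0395) and the kinase GSK3B, which marks MCL1 for degradation, at -0.23 (adjusted p = 0.0108), by edgeR's quasi-likelihood test. These 3 act on MCL1 in different directions. All had long transcripts, and with the length and GC trend removed HUWE1 was at 0.067 and USP9X at 0.073, above 0, and GSK3B at -0.022. HUWE1 passed in 3 of the 6 fits that left out 1 library, USP9X in 2 and GSK3B in 4. SKP1, a core subunit of SCF ubiquitin ligases, rose by 0.26 (adjusted p = 0.00229) and stood at 0.49 with the trend removed. Its counts are uncertain, as 3 pseudogenes are named after it. It also shares exon sequence with an unnamed gene on the same strand and with TCF7 on the opposite strand.

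Of 7 partners at the mitochondrial membranes, the fusion gene OPA1 fell by 0.19 on the log2 scale (adjusted p = 0.0288, edgeR's quasi-likelihood test) and the channel gene VDAC3 rose by 0.28 (adjusted p = 0.003). These were 1 lower and 1 higher, against 12.4% and 10.3% of all tested genes. With the trend removed by longest transcript neither passed, with OPA1 at 0.0017 and VDAC3 at 0.14 (adjusted p = 0.0807). OPA1 passed in 2 of the 6 fits that left out 1 library and VDAC3 in all 6. Among 10 tested regulators of transcription, 2 were lower and 1 was higher, against 12.4% and 10.3% of all tested genes. FOXO3, an activator of BCL2L11 and BBC3, fell by 0.31 (adjusted p = 0.00264) and STAT3, an activator of MCL1 and BCL2L1, fell by 0.16 (adjusted p = 0.0318). ATF4, the stress factor that induces PMAIP1 among others, rose by 0.23 (adjusted p = 0.00281). With the trend removed by longest transcript, FOXO3 was at -0.13 (adjusted p = 0.0983) and STAT3 at -0.091 (adjusted p = 0.227), both uncalled, and ATF4 at 0.12 (adjusted p = 0.0399). By canonical transcript ATF4 was uncalled too, at 0.089 (adjusted p = 0.107). STAT3 was also uncalled with the replicate block (adjusted p = 0.0771) and in 4 of the 6 fits that left out 1 library. BIRC6, HUWE1 and STAT3 also have exons in the study's list drawn from exon counts of these libraries, which is not independent evidence of their direction. For BIRC6 and HUWE1 the paper also reports less upstream mRNA by qRT-PCR in IRE1-treated samples than in controls. STAT3 was not among the genes it selected for that assay.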

How the data were processed

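RNA-seq was run on 3 IRE1-treated and 3 control samples of H929 RNA. The authors used Cutadapt 1.12 for trimming, STAR 2.5.3a for alignment to GRCh37 with Ensembl release 87, and HTSeq 0.6.1p1 for counting per gene, per the submitters' processing notes and the paper. The paper names a stranded library kit, but the strand and overlap settings of the counting are not given in the sources used here. The authors deposited raw counts per gene for each library, and a table of normalized CPM made with edgeR 3.24.3, used only in an alternative because its columns name a group and not a sample. The 5 summary lines that name no gene held 21.4 to 23.2% of counts and were left out. Depth on genes was 19615715 to 25678499 counts per library.

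From the counts, edgeR 4.0.16 (R 4.3.3) was run over all 6 libraries without covariates, with filterByExpr, TMM scaling (factors 1.02 to 1.03 in controls and 0.947 to 0.996 in IRE1-treated samples), the two-sided quasi-likelihood test and Benjamini-Hochberg adjustment over 14398 genes, at a threshold of 0.05. A normalized count is the raw count over the effective (TMM-scaled) library size, multiplied by the mean of these sizes. Levels per kb used merged exons of GENCODE release 44 on GRCh37. Ratios were tested by exact permutation (Python 3.11.15, scipy 1.17.1). Matches of CTGCAG were folded with ViennaRNA 2.7.2. In a simulation of this comparison on 14241 genes, 94 of 100 genes changed 2-fold and 75 of 100 changed 1.41-fold were recovered, and 6 unchanged genes were called. The simulated counts were independent between genes and held no trend with length or GC content. The changes of BCL2, BCL2L11 and BAX were smaller than those planted, so the simulation gives no recovery at their size.

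No library was a copy of another, with a chi-square per gene of at least 2.2 for each of 6 pairs within groups. The genes and lists were chosen with earlier results of these data known. Named are the 10 genes, the other family genes, up to 4 called genes in each direction with the lowest adjusted p from each other list, and BLOC1S1 and XBP1 as checks. Genes with fewer counts are named where they could not be tested.

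The alternatives were DESeq2 1.42.0, upper quartile scaling, library size only, a minimum of 10 counts in each library or no filter at all, limma 3.58.1 on log2(CPM + 1) of the deposited table, a block for replicate number, removal from each library of its loess trend (span 0.5) in length and GC content, and fits that each lacked 1 library. The canonical transcript as the length was added after seeing the data. Exon counts, qRT-PCR and protein data were not analysed here, and 1 marker gene is not reported here.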

Additional observations from a re-analysis of the deposited data

How the results depend on the processing

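BCL2, BCL2L11 and BAX kept their direction in all 16 alternatives, and 0 of the 9 other tested family genes was called in any of them (DESeq2 gave BCL2A1 no adjusted p). Their calls depended most on removal of the trend with transcript length and GC content, by longest transcript (A), by longest transcript with the replicate block (B) or by canonical transcript (C, added after seeing the data). Changed genes numbered 3270 at first and 1968, 1714 and 1497 under A, B and C, and of the 10 genes 3 at first and 1, 1 and 0. BCL2 was at -0.14, -0.14 and -0.12 and BAX at 0.11, 0.11 and 0.091, all uncalled (adjusted p = 0.185 to 0.296, edgeR's quasi-likelihood test). BCL2L11 was uncalled under C at -0.19 (adjusted p = 0.0927, the same test). In the 5 wider lists 1 gene was lower under A, B and C, against 7, and 3 and 5 were higher under B and C, against 8. By library size only, 14 were lower and 3 higher. The causes were not tested.

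No pairing of the samples by replicate number was seen in the counts, which cannot show whether same-numbered reactions shared an RNA preparation. Deviations of same-numbered libraries had r of -0.0358, -0.00505 and -0.112, and samples did not correlate best with their own number. The replicate block gave 2613 changed genes, 3 of the 10 genes and 4 lower genes in the wider lists.

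With 1 library left out, changed genes ranged from 1630 to 4312, calls among the 10 genes from 2 to 3, and calls in the wider lists from 2 to 9 lower and 3 to 10 higher. Log2 fold changes ranged from -0.38 to -0.24 for BCL2, -0.37 to -0.23 for BCL2L11 and 0.21 to 0.33 for BAX. The difference in balance ranged from -0.24 to -0.13, and the control balance from 0.76 to 0.83. Without MCL1 the difference was -0.10. The control balance of 0.79 was -2.03 without MCL1, 0.24 with the other guardians, effectors and BH3-only genes, 0.62 per canonical length and 1.97 with no division by length.

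The following signs turned in genes or ratios that passed no test there. Under A, B and C, MCL1 was at 0.011, 0.011 and 0.0073, BIK at -0.015, -0.021 and -0.0041, BCL2A1 at -0.06, -0.06 and -0.061, BAD at -0.034, -0.032 and -0.041, BCL2L12 at -0.062, -0.062 and -0.084, BCL2L13 at 0.023, 0.021 and 0.053, BNIP3L at 0.015, 0.013 and 0.047, HUWE1 at 0.067, 0.066 and 0.082, USP9X at 0.073, 0.074 and 0.12, and OPA1 at 0.0017, 0.0019 and 0.043. BAK1 was at -0.011 and -0.012 under A and B. Under C, BCL2L2 was at 0.008, BNIP3 at -0.072 and GSK3B at 0.016. By library size only, BCL2L1 was at -0.0098, BBC3 at -0.019, BMF at -0.054 and BNIP3 at -0.017. With 1 library left out, PMAIP1 ranged from -0.31 to 0.061, BCL2L2 from -0.088 to 0.055, BCL2A1 from -0.05 to 0.23 and BNIP3L from -0.10 to 0.028, and the ratio differences from -0.16 to 0.27 for MCL1/PMAIP1, -0.07 to 0.039 for BCL2/BCL2L11 and -0.052 to 0.0096 for BCL2L1/BAK1. In the controls the log2 ratio of BCL2 to BCL2L11 was 0.14 with no division by length, and that of BAX to BAK1 was 0.15 per longest and 0.90 per canonical length.

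Depth limits PMAIP1, HRK, BIK and BCL2A1 most, whose intervals are the widest of those tested in the family. Gene counts cannot place a cut within a transcript.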

Other observations

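CYCS and SKP1 stood further from 0 once the trend with transcript length and GC content was removed. Their longest and canonical transcripts have the same length (5432 bases for CYCS and 9386 for SKP1). The fit by canonical length is therefore no separate check of these genes. CYCS went from a log2 fold change of 0.21 to 0.35 by longest transcript (adjusted p = 0.00611, edgeR's quasi-likelihood test) and 0.39 by canonical transcript (adjusted p = 0.004), and SKP1 from 0.26 to 0.49 (adjusted p = 3.54e-05) and 0.54 (adjusted p = 1.35e-05). AIFM1 moved from 0.21 to 0.33 by longest transcript (adjusted p = 0.00155) but to 0.15 by canonical transcript (adjusted p = 0.0477), closer to 0. Its longest transcript has 5136 bases and its canonical transcript 2222. CFLAR, the inhibitor of caspase-8 upstream of BID, was chosen after its values were seen. It went from -0.10 (adjusted p = 0.146) to 0.16 by longest transcript (adjusted p = 0.0328). By canonical transcript it was at 0.19 (adjusted p = 0.0139, all by the same test). Its direction therefore depended on removal of the trend, and its longest and canonical transcripts are equally long (14612 bases).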
